A study of Mus musculus with 44 samples.

Results

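Day 17 mouse calvarial cultures were measured as the whole unsorted culture and as the cells that a sorter had left without green fluorescent protein (GFP), and the 2 RNAs were compared within each experiment. The arrays were chosen by label: all type A arrays titled unsorted (Un) or GFP-negative (Neg) in Exp100, Exp105 and Exp106, which gave 6 of the 18 arrays of type A and of the 44 arrays in all. The 3 day 17 GFP-positive arrays of type A were set beside them, to show on which side of each sorted fraction the unsorted RNA lay.

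The cultures of all 3 experiments, each of which gave an unsorted, a GFP-negative and a GFP-positive sample, came from the skull caps of newborn mice aged 7 days that carried the transgene pOBCol2.3GFP, in which a fragment of the type I collagen promoter drives GFP in differentiated osteoblasts. They were grown in DMEM with fetal calf serum for 7 days, with fresh medium on days 2 and 5, and then with ascorbic acid and beta-glycerophosphate until day 17. The other groups of the series were day 7 cultures carrying pOBCol3.6GFP, and arrays of types B and C. GFP-negative and GFP-positive cells had been through fluorescence-activated sorting and unsorted cells had not, so the comparison of unsorted with GFP-negative RNA also compares unhandled with sorted cells, and these cannot be told apart.

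Calvarial cultures are mixed. Osteoblasts secrete type I collagen and, once ascorbic acid and phosphate are supplied, lay down and mineralise a matrix that holds bone sialoprotein and other phosphoproteins; fibroblast-like progenitors that have not differentiated stay GFP-negative. Macrophages of the marrow and periosteum are carried over with the bone cells, and they are rich in lysosomes, the acid compartments in which cathepsins, lipases and glycosidases break down material taken up by the cell, kept acid by a proton pump of many subunits. If the unsorted culture were a plain sum of its sorted fractions, each gene would lie between its GFP-negative and GFP-positive level.

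In all, 7455 of 12422 probe sets (5639 of 8251 genes) lay above the median of their array on at least 3 of the 18 arrays and were tested. Intensities below are quantile-normalised, on a linear scale with an array median of 566, and differences are in log2 of that intensity plus 32. The arrays of Exp106 stood apart before any comparison: their mean correlation with the day 17 arrays of Exp100 and Exp105 was 0.845 to 0.854, against 0.935 to 0.955 for those arrays among themselves. Macrophage genes were also high in its GFP-positive RNA. Labels of all Exp106 samples and of the unsorted sample of Exp105 give calvaria as the source where the others give cell culture. The labels do not say whether the experiments came from separate animals; the p-values therefore reflect only how far these arrays vary among themselves, which may be technical.

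Unsorted RNA resembled GFP-negative RNA more than GFP-positive RNA. Across probe sets its correlation with the GFP-negative array of the same experiment was 0.963, 0.961 and 0.924 in Exp100, Exp105 and Exp106, and with the GFP-positive array 0.919, 0.930 and 0.917. A mean difference of at least 2-fold separated unsorted from GFP-negative RNA for 214 genes and unsorted from GFP-positive RNA for 690. With experiment as a block, limma called 31 probe sets higher (0.416% of those tested) and 15 lower (0.201%) in unsorted than in GFP-negative RNA at a Benjamini-Hochberg adjusted p under 0.05, and all 46 moved the same way in 3 of 3 experiments. Counted with 1 probe set per gene, 25 genes rose (0.443%) and 12 fell (0.213%), and the smallest adjusted p was 0.0155. At an unadjusted p under 0.05 there were 1354 probe sets, where 373 would be expected with no change.

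These calls depended on how the arrays were treated. On the values as deposited, without quantile normalisation, 5 probe sets were called higher and 0 lower, and with median scaling 6 higher and 0 lower. The median difference over all genes was -0.03 after quantile normalisation and 0.126 on the deposited values. Without the block on experiment, 1 probe set was called, and without Exp106, 37 were called (31 higher and 6 lower), of which 14 were among the 46. Leaving out the GFP-positive array of Exp106, which is in neither group compared, raised the number to 238, including all 46. Each unsorted or GFP-negative array left out in turn lowered it, to between 0 and 11 rises.

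Of the 36 called genes that carry a gene name, 34 lay on the same side of both fractions, or between them, in 3 of 3 experiments. Of 24 that rose, 7 lay between the fractions in 3 of 3 experiments, with GFP-positive RNA highest, and 15 lay above both fractions in 3 of 3. The other 2, Litaf and Sema4d, were above both fractions in 2 experiments and between them in 1. Of 12 that fell, 6 lay between the fractions with GFP-positive RNA lowest, and 6 lay below both. Over all tested genes these 4 patterns held for 1.76%, 10.2%, 2.46% and 12.8%, in the same order. The called genes had all moved the same way in 3 of 3 experiments, which most tested genes had not. Of the 1097 genes above GFP-negative RNA in 3 of 3, 99 lay between and 574 above both. Of the 1342 below it in 3 of 3, 139 lay between and 720 below both. The comparisons share the unsorted arrays, so a high unsorted value moves both differences up, and the patterns are descriptions.

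**Figure D1:**
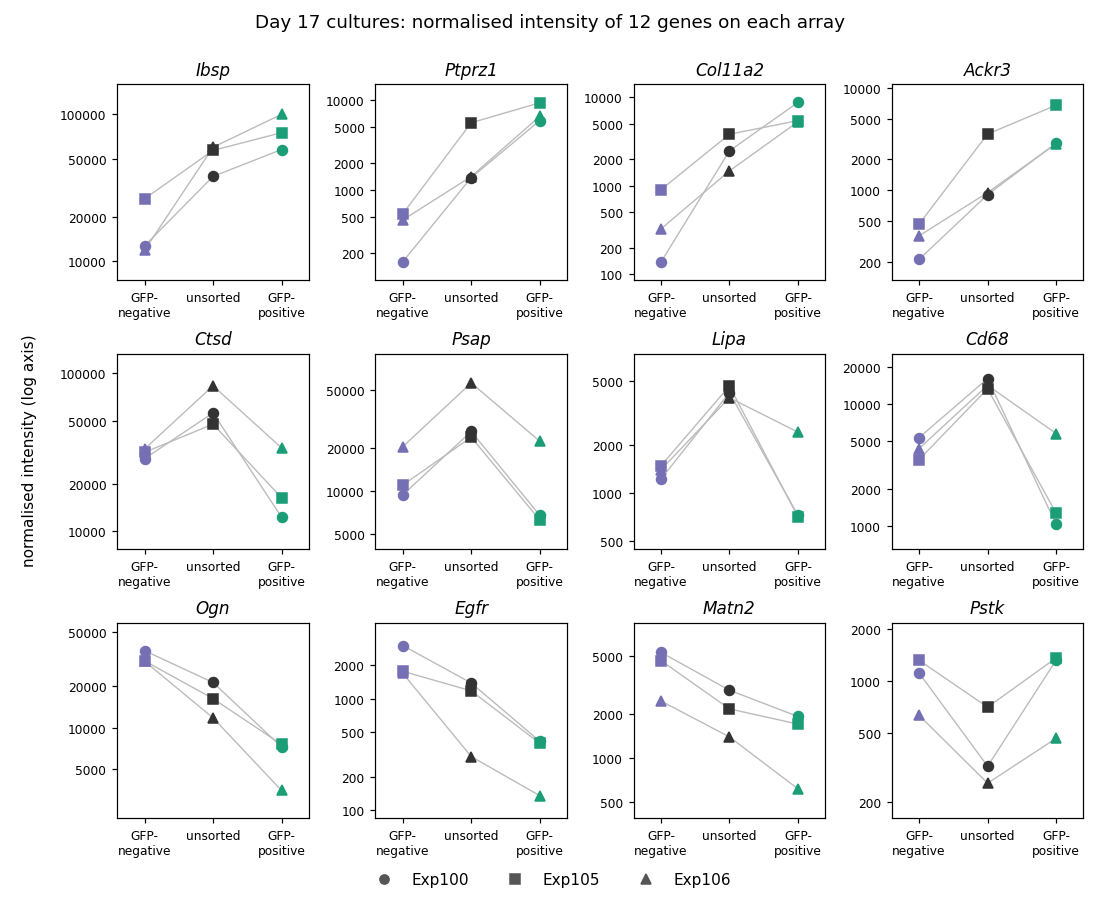
Normalised intensity (log axis) of 12 genes on each day 17 array; columns are GFP-negative, unsorted and GFP-positive RNA, marker shapes are Exp100, Exp105 and Exp106, and grey lines join 1 experiment. Ibsp, Ptprz1, Col11a2 and Ackr3 climb from left to right in all 3 experiments, Ctsd, Psap, Lipa and Cd68 peak in unsorted RNA, Ogn, Egfr and Matn2 descend, and Pstk is lowest in unsorted RNA.

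The 7 rises with GFP-positive RNA highest were Col11a2, Ptprz1, Ackr3, Ibsp, Bmp8a, Fyn and Ptgis. Ibsp encodes bone sialoprotein, a mineral-binding protein of the bone matrix. Its intensity was 12716, 26606 and 11864 in GFP-negative, 37817, 56897 and 59786 in unsorted and 57657, 75113 and 100230 in GFP-positive RNA of Exp100, Exp105 and Exp106. The lowest unsorted array was above the highest GFP-negative array, and the rise was 1.67 ± 0.28 (log2, SE), or 3.17-fold (limma, adjusted p = 0.0346). Without Exp106 it was 1.33 (adjusted p = 0.0749).

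Col11a2, a chain of the fibrillar type XI collagen, measured 137, 904 and 325 in GFP-negative and 2483, 3834 and 1474 in unsorted RNA, and 8786, 5471 and 5307 in GFP-positive RNA. The 3 groups did not overlap, and the rise of 2.67 ± 0.44 was the largest called (6.38-fold; limma, adjusted p = 0.0345; without Exp106 2.97, adjusted p = 0.0497). Ptprz1, a receptor tyrosine phosphatase, measured 161, 546 and 467 in GFP-negative, 1375, 5582 and 1416 in unsorted and 5891, 9286 and 6578 in GFP-positive RNA. Unsorted and GFP-negative arrays did not overlap, and the unsorted array of Exp105 was about level with the lowest GFP-positive one (rise 2.56 ± 0.40, limma adjusted p = 0.0230; without Exp106 3.07, adjusted p = 0.0465).

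Ackr3, an atypical receptor that binds the chemokine CXCL12, had the smallest adjusted p of all named genes. It rose from 210, 466 and 357 to 904, 3548 and 948, below the 2890, 6799 and 2862 of GFP-positive RNA in each experiment (2.04 ± 0.28, limma adjusted p = 0.0155; without Exp106 2.4, adjusted p = 0.0298). Bmp8a, a secreted factor of the bone morphogenetic protein family, rose by 1.35 ± 0.28 from 364, 520 and 635 to 1205, 1991 and 935. Fyn, a kinase of the Src family, rose by 0.91 ± 0.15, and Ptgis, which makes prostacyclin, by 0.89 ± 0.18; the unsorted and GFP-negative arrays of Ptgis overlapped, those of Fyn and Bmp8a did not. Unsorted RNA was below GFP-positive RNA for 6 of the 7 at an adjusted p under 0.05 in the same fit (11.5% of all genes were), Ibsp being the exception (-0.58 ± 0.28, adjusted p = 0.161). The 7 were grouped by lying below GFP-positive RNA in each experiment, so this count is no separate support. Without Exp106, 4 of the 7 rises were called.

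Other genes of the osteoblast and osteocyte list gave a mixed picture. Of 25 listed genes on the array 22 were tested, 3 rose (Col11a2, Ptprz1 and Ibsp) and 0 fell. Over all tested genes 0.443% rose and 0.213% fell. The median difference of the 22 was 0.16, against -0.03 over all tested genes. In GFP-positive RNA the same genes were above GFP-negative RNA by a median of 0.64. Dmp1, which encodes a phosphoprotein of mineralised matrix and marks the step towards osteocytes, measured 299 and 835 in GFP-negative and 6582 and 4288 in unsorted RNA of Exp100 and Exp105, but 172 and 221 in Exp106, where its GFP-positive level was also low at 626. Its difference of 2.32 ± 0.56 did not pass (limma, adjusted p = 0.084), while without Exp106 it was 3.32 (adjusted p = 0.0316).

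Alpl, the alkaline phosphatase that releases phosphate for mineral, was 6648, 8677 and 4002 in GFP-negative and 9491, 15946 and 4804 in unsorted RNA, higher in each experiment and overlapping between groups (0.55 ± 0.21, adjusted p = 0.182). Col1a1, a chain of type I collagen, was 132820 on all 3 GFP-negative and 149230 on all 3 unsorted arrays, values that quantile normalisation gives by rank, so a difference there (0.17 ± 0.24) cannot be measured. Col1a2, the other chain, differed by 0.16 ± 0.22 (adjusted p = 0.75), and each of these genes had another probe set of the opposite sign. Phex, an endopeptidase of osteoblasts and osteocytes, lay above the array median on 2 of 9 arrays and was not tested. Mmp13, a collagenase, ran the other way, with 40683, 44304 and 45899 in GFP-negative and 30279, 41285 and 25083 in unsorted RNA (-0.47 ± 0.19, adjusted p = 0.221).

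How far unsorted RNA had moved from the GFP-negative towards the GFP-positive level was taken as a position, where 0 is the GFP-negative and 1 the GFP-positive intensity of the same experiment. For the 25 genes at least 4-fold higher in GFP-positive cells the median position was 0.194, 0.262 and 0.165 in Exp100, Exp105 and Exp106 (mean 0.207 ± 0.050, SD, n = 3). Between 21 and 23 of the 25 lay strictly between the fractions in each experiment. Positions of single genes spread widely: Ibsp stood at 0.559, 0.624 and 0.542, Ackr3 at 0.259, 0.487 and 0.236, Col11a2 at 0.271, 0.642 and 0.231, and Cd1d1, a lipid-presenting molecule, at 0.0229, 0.00659 and 0.0105.

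The 79 genes at least 4-fold lower in GFP-positive cells gave no common position. Their medians were 0.198, -0.183 and 0.218, and 31, 43 and 25 of them lay beyond the GFP-negative level, outside the range of the fractions. Without Exp106 the mean of the medians was 0.282 for the genes high in GFP-positive cells and -0.162 for those low in them. In bulk RNA, fewer cells of a type and less RNA per cell cannot be told apart, so a position is not a share of cells. It also uses the GFP-negative and GFP-positive arrays that chose the genes, and no test was made.

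**Figure D2:**
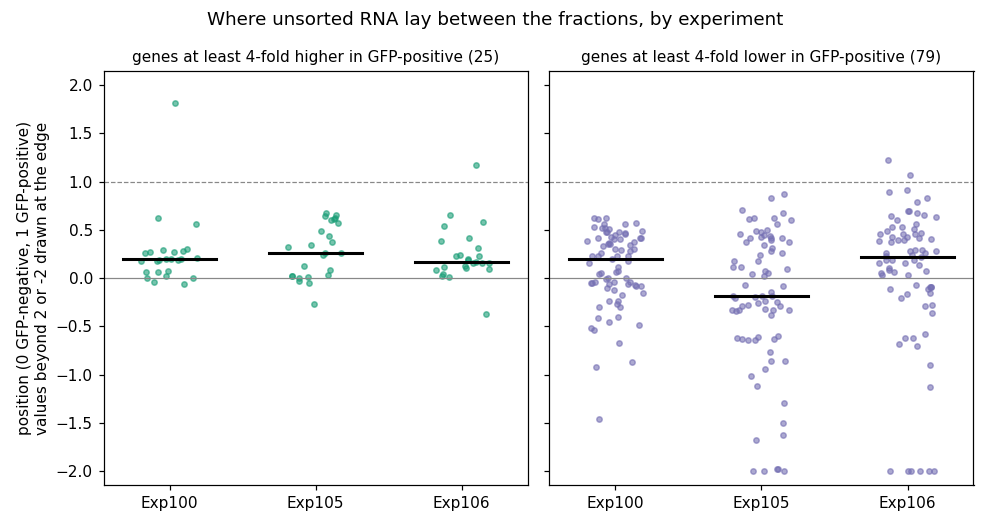
Position of unsorted RNA on the linear scale from GFP-negative (0, solid line) to GFP-positive (1, dashed line) for each gene in each experiment; black bars are medians and points beyond 2 or -2 are drawn at the edge. The 25 genes high in GFP-positive cells cluster between the lines with medians of 0.165 to 0.262, while the 79 genes low in them scatter widely, with medians of -0.183 to 0.218.

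The 15 rises above both fractions in 3 of 3 experiments were Atp6v1c1, Cd93, Ctsd, Cyba, Fosl1, H2-Q5, Hk2, Irf5, Lipa, Psap, Rasa4, Selplg, Skap2, Slc20a1 and Tpd52. Without Exp106, only 3 of these 15 rises were called. Against GFP-positive RNA, 13 of the 15 also passed on their own (12.6% of all genes did), while Hk2 and H2-Q5 did not. The 15 were grouped by being above GFP-positive RNA in each experiment, so this count is no separate support. A joint test that asks for both differences at once, taking the larger of the pair of one-sided p-values, called 0 probe sets (0.0%) above both fractions, with 455 at an unadjusted p under 0.05 and a smallest adjusted p of 0.0901, shared by Cyba, Fosl1, Irf5 and Psap. The joint tests for a level below both, between with GFP-positive higher, and between with GFP-negative higher also called 0 each (0.0%, 0.0% and 0.0%), with 685, 65 and 86 at an unadjusted p under 0.05.

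This count was 0 with any 1 of the 9 day 17 arrays left out except the GFP-positive array of Exp106. Without that GFP-positive array the joint test called 91 of 7209 tested probe sets above both fractions. These named 80 genes, among them 13 of the macrophage list and 11 of the lysosome and proton pump lists. Without Exp106 as a whole the joint test called 15 of 7033, which named 13 genes: Ccl8, Cd68, Cd93, Creg1, Gpr137b, Gpr137b-ps, Il10rb, Lgals3, Lipa, Mpeg1, Rasa4, Sgpl1 and Syngr1. Gpr137b and its pseudogene are near-identical copies whose signals are uncertain.

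Lysosomal hydrolases and a cofactor were among the genes above both fractions. Ctsd, the aspartic protease cathepsin D, was 28844, 31630 and 33188 in GFP-negative, 56236, 47717 and 83433 in unsorted and 12323, 16321 and 33785 in GFP-positive RNA. All 3 unsorted arrays were above the 6 others, and the rise over GFP-negative RNA was 0.96 ± 0.20 (1.95-fold; limma, adjusted p = 0.0484; without Exp106 0.78, adjusted p = 0.0666). Psap, the precursor of the saposins that help lipid hydrolases reach their substrates, rose from 9374, 10960 and 20255 to 25865, 23623 and 56236, against 6767, 6280 and 22131 in GFP-positive RNA (1.35 ± 0.23, limma adjusted p = 0.0345; without Exp106 1.28, adjusted p = 0.0614). Unsorted RNA of Psap was above all 6 other arrays, and above both fractions of its own experiment each time. Lipa, the lysosomal acid lipase, rose from 1218, 1476 and 1393 to 4246, 4670 and 3948, with 724, 707 and 2403 in GFP-positive RNA (1.63 ± 0.33, limma adjusted p = 0.0484; without Exp106 1.71, adjusted p = 0.0298).

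Of 30 lysosomal hydrolases and cofactors on the array 26 were tested, 3 rose and 0 fell (0.443% and 0.213% of all genes did). At an unadjusted p under 0.05, 12 of the 26 were higher (8.44% of all genes were) and 0 were lower (10.6% of all genes were). Their median difference from GFP-negative RNA was 0.36, and 0.342, 0.433 and 0.430 in the 3 experiments one by one. From GFP-positive RNA it was 1.02 and 1.001 in Exp100 and Exp105 and 0.426 in Exp106. In 3 of 3 experiments 17 of the 26 were above both fractions (10.2% of all genes were). A tested gene could pass the filter on its unsorted arrays alone, so these counts describe the tested members and are no support for a difference.

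Ctsb, the cysteine protease cathepsin B, measured 31824, 25455 and 24785 in GFP-negative, 64543, 50081 and 34310 in unsorted and 8733, 11051 and 32927 in GFP-positive RNA. Unsorted arrays were again the highest, although in Exp106 by little over GFP-positive RNA, and the difference of 0.82 ± 0.37 did not pass (adjusted p = 0.260). Gla, Man2b1, Lgmn, Grn and Tpp1, which encode a galactosidase, a mannosidase, the protease legumain, progranulin and a peptidase, had differences of 1.53, 1.19, 1.07, 0.90 and 0.88, each above both fractions in 3 of 3 experiments, 0 called (lowest adjusted p = 0.0971). Cathepsins did not move as 1 group. Ctsh was below the GFP-negative level in each experiment (-0.38 ± 0.21, adjusted p = 0.352), Ctsl differed by 0.12 ± 0.15, and Ctsk, the collagenase of osteoclasts that fibroblasts also make, was 16789, 16725 and 13257 in GFP-negative and 11542, 8040 and 13257 in unsorted RNA (-0.53 ± 0.18, adjusted p = 0.151).

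Of 12 tested lysosomal membrane and sorting genes 0 were called in either direction, with a median of 0.24. At an unadjusted p under 0.05, 5 were higher and 1 lower (8.44% and 10.6% of all genes were). Lamp1, a lysosomal membrane glycoprotein, was 29188, 23910 and 25455 in GFP-negative and 39490, 30279 and 48170 in unsorted RNA (0.57 ± 0.16, adjusted p = 0.119), and its relative Lamp2 was lower in each experiment (-0.43 ± 0.13, adjusted p = 0.128), with another probe set of the opposite sign. Npc1, which exports cholesterol from the lysosome, and Slc11a1, a metal transporter of phagocytes, had the largest differences of these genes (1.35 ± 0.35, adjusted p = 0.102, and 1.001 ± 0.481, adjusted p = 0.292). Among 14 pump subunits 1 rose, Atp6v1c1, from 1634, 1050 and 2525 to 2266, 2442 and 6114 (0.97 ± 0.17, limma adjusted p = 0.0373), overlapping between groups but higher in each experiment. The median of the 14 was 0.19, and 0.443% of all genes rose. As for the hydrolases, the counts for membrane and pump genes are descriptions. Atp6v1a, the catalytic subunit, narrowly missed with its brightest probe set (0.57 ± 0.12, adjusted p = 0.0526) and passed with its other one, and Tcirg1, a pump subunit on the osteoclast list, measured 1830, 1562 and 1586 in GFP-negative and 4565, 2792 and 4238 in unsorted RNA (1.18 ± 0.28, adjusted p = 0.084).

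Lysosomal genes are known to share a promoter motif bound by the transcription factor TFEB, so the stretch of 250 bases before to 50 after each start in RefSeq (GRCm38.p6) was searched for its core. The core searched was TCACGTGA, which reads the same on both strands. It was present in 0.974% of all 32851 promoters of the table and in 2.37% of the 4563 tested genes found there. It was present in 3 of 23 hydrolase genes (Ctsa, Ctsd and Gla), 2 of 9 membrane genes (Cln3 and Igf2r), 3 of 9 pump genes, 0 of 20 macrophage genes and 1 of 17 osteoblast genes. The sequences of 3 of the genes above both fractions are shown with up to 30 bases on each side, upstream of the start, 5′ to 3′ on the gene's own strand (minus for all 3), with the core in capitals.
Ctsd, chr7:142387889-142387956: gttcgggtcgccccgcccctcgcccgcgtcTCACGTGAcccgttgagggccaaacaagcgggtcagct
Cln3, chr7:126583321-126583388: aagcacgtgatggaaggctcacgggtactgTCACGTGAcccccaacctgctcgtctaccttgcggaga
Atp6v1a, chr16:44139354-44139421: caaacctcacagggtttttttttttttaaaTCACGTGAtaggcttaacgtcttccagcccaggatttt
Unsorted RNA of Cln3, a lysosomal membrane protein, was above both fractions in 3 of 3 experiments by 0.72 ± 0.16 over GFP-negative RNA (adjusted p = 0.0633). The core was not in the windows of Lipa and Psap, which rose more than Cln3. Gla and Igf2r each have it in 2 places. Unsorted RNA of Gla was 2.89-fold the GFP-negative level, though not called, and Igf2r differed by 0.07 ± 0.25, or 1.05-fold. A match describes these letters and is no measure of binding.

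Macrophage genes had the largest list median. Of 40 listed genes on the array 32 were tested, and their median difference was 1.15 from GFP-negative and 2.53 from GFP-positive RNA, while GFP-positive RNA lay 1.17 below GFP-negative RNA. By experiment the median over GFP-negative RNA was 0.833, 1.18 and 1.28. Of the 32, 28 were above GFP-negative RNA in 3 of 3 experiments (19.5% of all genes were), 0 were below it in 3 of 3 (23.8%), and 26 were above both fractions in 3 of 3 (10.2%). Only 1, Cyba, was called (0.443% of all genes rose), and 17 were higher at an unadjusted p under 0.05 (8.44%). As for the hydrolases, a gene could be tested on the strength of its unsorted arrays alone, and the counts are descriptions. Without Exp106 the list's median was 1.01 and 3 genes were called.

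Cyba encodes the p22phox subunit of the oxidase that phagocytes use against microbes. It measured 9966, 8639 and 9247 in GFP-negative, 16413, 14686 and 16321 in unsorted and 4538, 5497 and 6620 in GFP-positive RNA, with no overlap between the 3 groups (0.77 ± 0.14, 1.70-fold; limma, adjusted p = 0.0373; without Exp106 0.74, adjusted p = 0.0666). Cd68, a glycoprotein of macrophage lysosomes, was 5281, 3495 and 4301 in GFP-negative, 16027, 13223 and 14112 in unsorted and 1034, 1276 and 5699 in GFP-positive RNA. Every unsorted array was above all 6 others, and still the difference of 1.74 ± 0.40 missed the threshold (adjusted p = 0.071). Without Exp106 it was 1.75 and passed (adjusted p = 0.0298).

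Csf1r, the receptor for the growth factor macrophages need, was 6270, 3324 and 1624 in GFP-negative, 13877, 7214 and 5203 in unsorted and 1009, 734 and 1894 in GFP-positive RNA. The groups overlapped, while the unsorted array was above both fractions of its own experiment each time (1.30 ± 0.43, adjusted p = 0.147). Lyz2, the lysozyme of macrophages and granulocytes, measured 36095, 24935 and 14982 in GFP-negative and 45519, 40683 and 55506 in unsorted RNA (0.98 ± 0.46, adjusted p = 0.277). Larger differences came from the Fc receptor Fcgr2b (1.97 ± 0.54), the integrin chain Itgb2 (1.80 ± 0.66), the complement subunit C1qc (1.67 ± 0.47), Cd53 (1.65 ± 0.61) and Laptm5 (1.65 ± 0.41), all above both fractions in 3 of 3 experiments, with adjusted p from 0.087 to 0.174. Coro1a, Cx3cr1 and Cd52 did not share the pattern, with differences of 0.06, -0.07 and -0.21. Of the defining macrophage markers, Csf1r, Cd68 and Lyz2 lay above the array median on 9 of 9 day 17 arrays. Adgre1 did so on 7 and Itgam on 3. Ptprc, a gene of leukocytes in general, did so on 1 and was not tested.

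Intensity was summed over all 40 listed macrophage genes on the array, tested or not. It was 338700, 286600 and 301200 in unsorted, 182700, 124900 and 119900 in GFP-negative and 40700, 45630 and 148000 in GFP-positive RNA. The unsorted sums were the highest in all 3 experiments, and in Exp106 the GFP-positive sum was above the GFP-negative one. For all 30 lysosomal hydrolases and cofactors on the array the sums were 294000, 273800 and 305400 in unsorted, 187700, 174200 and 185100 in GFP-negative and 98740, 113700 and 183000 in GFP-positive RNA, in the same order. Macrophages are known to be rich in these hydrolases, and the part of the macrophage markers in the lysosomal differences was not tested.

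**Figure D3:**
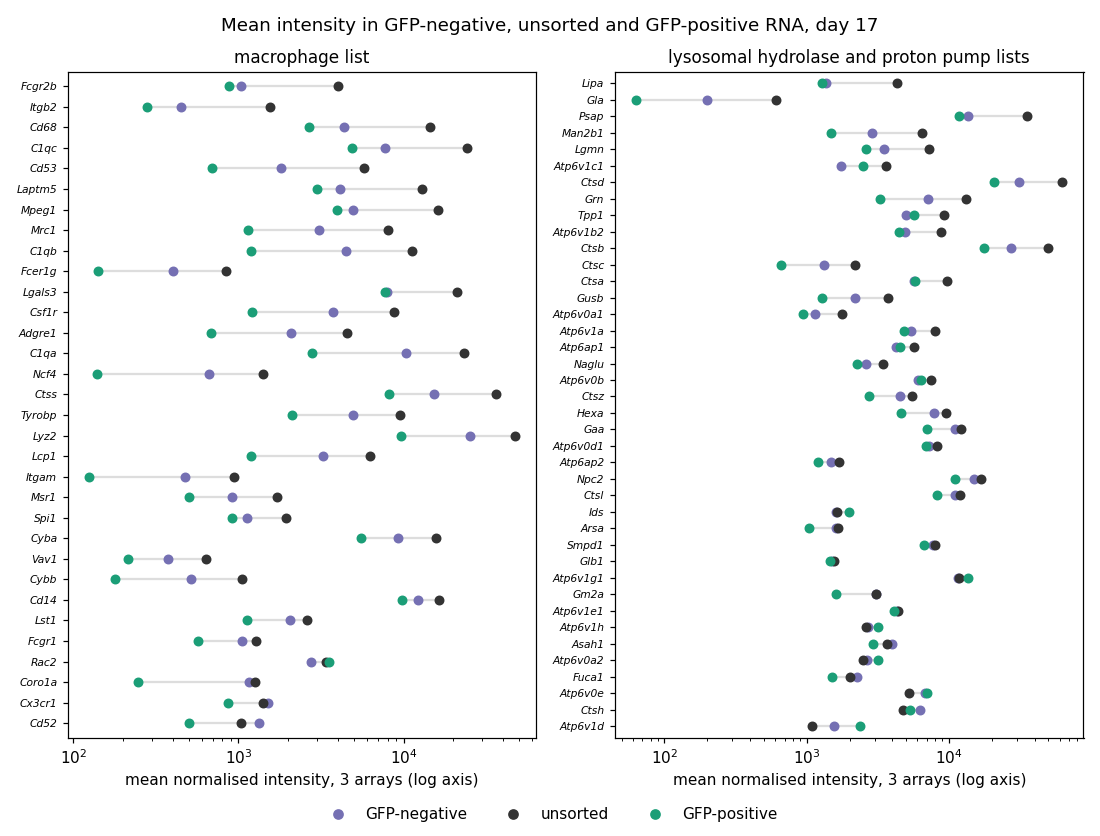
Mean normalised intensity over 3 arrays (log axis) of the 32 tested genes of the macrophage list and the 40 of the lysosomal hydrolase and proton pump lists, ordered by the difference of unsorted from GFP-negative RNA; dots are GFP-negative, unsorted and GFP-positive means. The unsorted mean lies to the right of both fractions for most macrophage genes and for the upper hydrolases, and the 3 means close up or change order towards the bottom.

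Complement genes, of which several are products of macrophages, had a median of 0.84 over GFP-negative RNA with 10 of 11 tested and 0 called. Of the 10, 6 were higher at an unadjusted p under 0.05 (8.44% of all genes were). The list shares C1q genes with the macrophage list, so the medians of these lists are not separate results. C1qc, C3ar1, C1qb and C1qa differed by 1.67, 1.67, 1.48 and 1.27, while Serping1 and C1ra, which fibroblasts also make, differed by 0.03 and -0.07. Irf5, a transcription factor of myeloid cells, rose from 1156, 885 and 844 to 2053, 1727 and 2274, with 625, 438 and 617 in GFP-positive RNA (1.05 ± 0.19, limma adjusted p = 0.0373; without Exp106 adjusted p = 0.0666). Its 3 groups did not overlap. Cd93, a receptor of myeloid and endothelial cells, rose from 696, 596 and 952 to 2632, 2792 and 2002 (1.70 ± 0.35, limma adjusted p = 0.0486; without Exp106 2.02, adjusted p = 0.0349). Selplg, the selectin ligand of leukocytes, rose by 1.01 ± 0.21 and Skap2, an adaptor of blood cells, by 1.24 ± 0.24.

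Other cell types were checked with their defining markers. Endothelial Pecam1, Cdh5 and Tie1 were above the array median on 0 of 9 arrays and Kdr on 1, granulocyte S100a8 and Mpo and the T cell gene Cd3e on 0, cartilage Col2a1 and Acan on 0, the pericyte gene Rgs5 on 0, the fat cell gene Fabp4 on 0 and the osteoclast receptor Calcr on 0. Other markers were above it on some arrays: the B cell gene Cd79a on 5 of 9, the haemoglobin gene Hba-a1 on 7, the muscle regulator Myog on 4, Adipoq of fat cells on 2 and Mmp9 on 2. The pericyte marker Acta2 and the osteoclast marker Ctsk were above it on 9 of 9, and the osteoclast marker Acp5 on 8. Hba-a1 measured 302, 676 and 202 in GFP-negative, 674, 632 and 997 in unsorted and 1873, 1406 and 1085 in GFP-positive RNA (1.04 ± 0.40, adjusted p = 0.194), higher than GFP-negative RNA in 2 of 3 experiments. Cd79a was 158, 640 and 2090 in GFP-negative and 624, 476 and 1938 in unsorted RNA, with its highest levels in Exp106 in every fraction (0.43 ± 0.46, adjusted p = 0.678). The part of these cells in the other results was not tested.

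The osteoclast, class II, and smooth muscle and pericyte lists had 0 calls. Acp5, the acid phosphatase of osteoclasts, was 971 to 1560 in unsorted and 1230 to 1700 in GFP-negative RNA, and the 8 tested osteoclast genes had a median of 0.19, with Tcirg1 at 1.18 and the kinase gene Src at -0.90 as their largest differences. Class II genes, carried by antigen-presenting cells, had a median of -0.12 over 4 tested. H2-Eb1, a class II chain, measured 135, 203 and 266 in GFP-negative, 221, 687 and 1544 in unsorted and 221, 268 and 2243 in GFP-positive RNA, higher than GFP-negative RNA in each experiment (1.54 ± 0.44, adjusted p = 0.121). H2-DMa differed by -0.15 ± 0.26, and Cd74, the class II chaperone, was 1104, 1015 and 1202 in GFP-negative and 772, 792 and 1700 in unsorted RNA. Tpm1, a tropomyosin of contractile cells, was lower in each experiment (-0.53 ± 0.12, adjusted p = 0.0604), Des, desmin, differed by 0.57 ± 0.42, and the 14 smooth muscle and pericyte genes had a median of -0.10.

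In the skeletal muscle, adipocyte, inflammatory, interferon, antioxidant, cartilage, endothelial, erythroid, and granulocyte and lymphocyte lists 0 genes were called, and the largest differences went both ways. The muscle troponin genes Tnni1 and Tnnt1 differed by -0.92 ± 0.24 and -0.72 ± 0.34, and the adipocyte list's Scd1, a fatty acid desaturase, and Cebpa, a transcription factor, by 0.68 ± 0.27 and 0.58 ± 0.20. The chemokine genes Ccl8 and Cxcl1 differed by 1.72 ± 0.59 and -1.53 ± 0.56, the interferon-responsive genes Ifit1 and Irf8 by 0.81 ± 0.43 and 0.56 ± 0.58, and Gclm and Fth1, of glutathione synthesis and iron storage, by 0.79 ± 0.24 and 0.78 ± 0.24. Smaller values came from the cartilage list (Chad 0.47 ± 0.26 and Fmod -0.13 ± 0.20), the endothelial list (Eng 0.13 ± 0.21 and Sox18 0.09 ± 0.42), the erythroid gene Slc4a1 (-0.31 ± 0.33) and Cd4 (-0.52 ± 0.68). All of these had adjusted p of at least 0.102. H2-Q5 rose (1.74 ± 0.35, adjusted p = 0.0484), but its probe set is shared among near-identical class I genes and its identity is uncertain.

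The remaining rises had other functions. Fosl1, a Fos-family subunit of the transcription factor AP-1, rose from 137, 160 and 125 to 439, 829 and 915, with 160, 283 and 97 in GFP-positive RNA (2.08 ± 0.35, 4.23-fold; limma, adjusted p = 0.0345; without Exp106 1.82, adjusted p = 0.0516). Unsorted RNA stood above all 6 other arrays. Those 6 arrays, and the unsorted array of Exp100, were below the array median of 566. Among the day 17 arrays, only unsorted ones helped Fosl1 pass the filter. Hk2, the inducible hexokinase, rose from 809, 1486 and 760 to 2002, 4854 and 2384 (1.52 ± 0.30, limma adjusted p = 0.0484). Slc20a1, a phosphate transporter, rose by 1.02 ± 0.19, Tpd52 by 1.33 ± 0.27, Sema4d, a semaphorin, by 1.13 ± 0.23, Litaf by 1.04 ± 0.18 and Rasa4, which restrains Ras, by 0.80 ± 0.16.

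Immediate early and stress genes, which respond fast to handling, differed both ways, with 0 of 24 called and a median of -0.09. Fos was 4065, 3627 and 7743 in GFP-negative, 917, 1619 and 3267 in unsorted and 4831, 8245 and 7609 in GFP-positive RNA, so that every unsorted array was below every sorted one (-1.50 ± 0.46 against GFP-negative RNA, adjusted p = 0.128). Dusp1, a phosphatase induced by stress, and the heat shock gene Hspa1a were also lower in each experiment (-0.98 ± 0.31 and -0.999 ± 0.361). Atf3 ran the other way, with 1608, 1183 and 1570 in GFP-negative and 2716, 3578 and 3460 in unsorted RNA (1.15 ± 0.27, adjusted p = 0.078), as did Jun (0.57 ± 0.21), while Egr1 differed by 0.29 ± 0.25. Hspa1b, a gene related to Hspa1a, did not share its fall and was at 0.996-fold the GFP-negative level.

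Glycolytic genes had a median of 0.33 over 18 tested with 1 called, Hk2 (0.443% of all genes rose). By experiment the median was 0.310 and 0.642 in Exp100 and Exp105 and -0.104 in Exp106. Pkm, the pyruvate kinase, was 29553, 35462 and 21604 in GFP-negative and 50754, 51803 and 27342 in unsorted RNA (0.56 ± 0.13, adjusted p = 0.075). Collagens and their processing enzymes had a median of 0.26 with 1 of 27 called, Col11a2 (0.443% of all genes rose). P4ha1, which hydroxylates collagen prolines, had a difference of 0.88 ± 0.22 and lay between the fractions in 3 of 3 experiments (adjusted p = 0.0939). Col13a1, a membrane collagen, did likewise (1.19 ± 0.36, adjusted p = 0.128).

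Of the 12 falls, Egfr, Ogn, Crabp1, Matn2, Cdkn1c and Itm2a lay between the fractions in 3 of 3 experiments. All 6 were above GFP-positive RNA at an adjusted p under 0.05 (12.6% of all genes were), but being above it in each experiment had grouped them. Ogn encodes osteoglycin, a small leucine-rich proteoglycan of connective tissue. It measured 36394, 30678 and 30510 in GFP-negative, 21332, 16269 and 11782 in unsorted and 7229, 7544 and 3482 in GFP-positive RNA, with no overlap, and fell by 1.02 on the log2 scale (SE 0.19; limma, adjusted p = 0.0453; without Exp106 adjusted p = 0.0666), as did a second probe set of the gene.

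Egfr, the receptor for epidermal growth factor, went from 2979, 1754 and 1685 to 1378, 1171 and 303 (-1.34 ± 0.27, limma adjusted p = 0.0484; without Exp106 -0.83, adjusted p = 0.0923), although another probe set of the gene had the opposite sign. Matn2, a matrilin of the pericellular matrix, went from 5332, 4684 and 2469 to 2927, 2178 and 1397, lower in each experiment and overlapping between groups (-0.92 ± 0.17, limma adjusted p = 0.0373; without Exp106 -0.98, adjusted p = 0.0349). Cdkn1c, the cell cycle inhibitor p57, went from 19873, 12927 and 6382 to 11589, 5291 and 4527 (-0.85 ± 0.16, limma adjusted p = 0.0466). Crabp1, which binds retinoic acid, fell by 0.99 (SE 0.19) and Itm2a, a membrane protein, by 0.79 (SE 0.16).

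Of 30 tested fibroblast and progenitor genes 1 fell, Ogn, and 0 rose (0.213% and 0.443% of all genes did). The median was -0.15 against GFP-negative and 1.15 against GFP-positive RNA. Postn, the matrix protein periostin, was 24785, 21681 and 19545 in GFP-negative and 17650, 14864 and 12548 in unsorted RNA (-0.56 ± 0.16, adjusted p = 0.116), and Dcn, decorin, 66885, 58027 and 78083 against 48606, 33188 and 71772 (-0.46 ± 0.12, adjusted p = 0.102). Both were lower in 3 of 3 experiments. Col6a3 and Fbln2, also GFP-negative in their pattern, were instead higher in unsorted than in GFP-negative RNA in 3 of 3, by 0.56 ± 0.43 and 0.51 ± 0.36.

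The other 6 falls, Pstk, Nfyb, Srsf3, Psmd14, Ppic and Rpl10a, lay below both fractions in 3 of 3 experiments. Of these, 4 were also below GFP-positive RNA at an adjusted p under 0.05 (11.5% of all genes were), but being below it in each experiment had grouped them. Srsf3, a splicing factor, was 5493, 6073 and 2512 in GFP-negative, 2693, 3222 and 1528 in unsorted and 4619, 6565 and 2240 in GFP-positive RNA (-0.88 ± 0.16, limma adjusted p = 0.0373). Pstk, a kinase of selenocysteine synthesis, was 1112, 1317 and 632 in GFP-negative, 321, 705 and 256 in unsorted and 1318, 1359 and 465 in GFP-positive RNA (-1.26 ± 0.24, limma adjusted p = 0.0466). Psmd14, a deubiquitinase of the proteasome, Ppic, a cyclophilin, Nfyb, a subunit of the factor NF-Y, and Rpl10a, a ribosomal protein, fell by 0.67, 0.66, 0.94 and 0.56. Without Exp106, 0 of these 6 passed.

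Of 32 tested respiratory chain genes 0 were called, with a median of -0.23. In 3 of 3 experiments 18 were below GFP-negative RNA (23.8% of all genes were) and 15 below both fractions (12.8%). Cox7b, a subunit of cytochrome oxidase, was 8879, 11289 and 9678 in GFP-negative and 5426, 5537 and 4758 in unsorted RNA (-0.92 ± 0.25, adjusted p = 0.114), and Cox7a2, another, differed by -0.63 ± 0.25. Cell cycle genes had a median of -0.19 with 0 of 37 called. Hmgb2, a chromatin protein of dividing cells, and Aurka, a mitotic kinase, were lower in each experiment (-1.38 ± 0.38, adjusted p = 0.116, and -0.74 ± 0.26, adjusted p = 0.168). Secretory pathway genes had a median of -0.09 with 0 of 42 called, and a median of -0.56 against GFP-positive RNA. Creb3l1, a transcription factor of secretory cells, and Ero1a, an oxidase of protein folding, had differences of 0.74 ± 0.25 and 0.81 ± 0.28 from GFP-negative RNA.

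**Figure D4:**
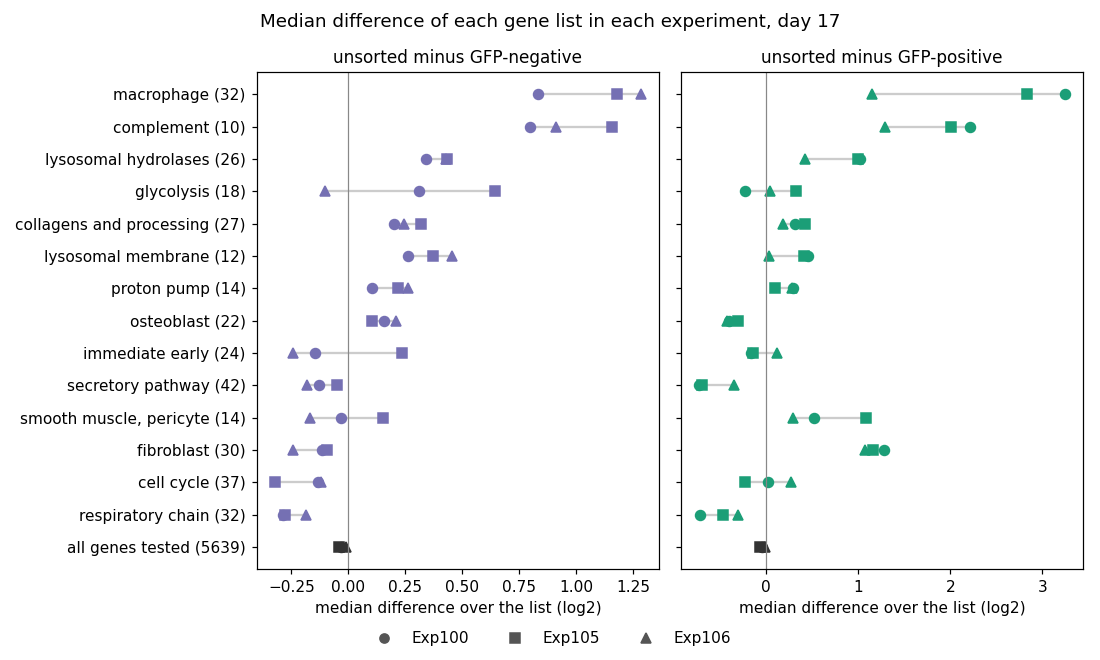
Median difference over each gene list (log2; number of tested genes in brackets) of unsorted from GFP-negative RNA (left) and from GFP-positive RNA (right), with 1 marker for each experiment. The macrophage and complement lists, which share C1q genes, lie right of 0 in both panels and the respiratory chain list left of 0 in both. The osteoblast list lies right of 0 against GFP-negative and left of 0 against GFP-positive RNA.

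The same contrast at day 7 gave other values. There, in cultures with the other transgene and no additions, limma called 0 probe sets between unsorted and GFP-negative RNA. The median difference at day 7 was 0.14 for macrophage genes, 0.20 for lysosomal hydrolases, 0.03 for osteoblast genes and 0.20 for fibroblast genes, beside 1.15, 0.36, 0.16 and -0.15 at day 17. The difference between the effects of the 2 days was tested for every probe set and passed for 0, with 462 at an unadjusted p under 0.05.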

How the data were processed

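Total RNA of each culture was hybridised to Affymetrix MG-U74 arrays, per the labels. The deposited values are linear intensities per probe set, whole numbers with a floor of 10; the authors' summarisation and scaling are not given in the sources used here. From these, log2 of intensity plus 32 was computed and the 18 type A arrays were quantile-normalised. Probe sets above their array's median on at least 3 arrays were tested with limma 3.58.1 (statmod 1.5.0, R 4.3.3), with 6 groups of 3 arrays and experiment as a block, an intensity trend in the variance, and Benjamini-Hochberg adjustment over 7455 probe sets. All 18 arrays shared 1 estimate of the spread. The script was tested on simulated data.

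The experiment name pairs the arrays. Each unsorted array deviated from its group's mean together with the GFP-negative array of its own experiment (correlations 0.598, 0.623 and 0.781) more than with any other sorted array. For Exp100 the margin was small, since the GFP-negative array of Exp105 gave 0.578. The GFP-negative array of Exp106 deviated opposite to the unsorted arrays of Exp100 and Exp105 (-0.681 and -0.640), so the separation was mainly that of Exp106.

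A gene is represented by its brightest probe set. Of 12422 probe sets 10833 name 1 gene, 396 several and 1193 none. The genes named were to be the largest called rises and falls that moved alike in all experiments, the largest called members of each list, the 2 largest changes of a list with 0 called, and a few set genes. Other called genes, joint-test genes and further list members are named as examples chosen after their values were seen. The members and lists were chosen with earlier results of these data known. Arrays of types B and C were not used here, since they hold unsorted RNA of 1 experiment. Differences on the log2 scale with an added 32 understate the change of dim genes. The number of arrays limits the precision.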

Additional observations from a re-analysis of the deposited data

Results flagged for a closer look

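For 2 called genes the difference of unsorted from GFP-negative RNA ran one way in all 3 day 17 experiments and the other way in all 3 day 7 experiments. Cdkn1c differed by -0.851 at day 17 and by 0.201 ± 0.163 (SE) at day 7, where single experiments gave 0.0476 to 0.302. The difference between the days was -1.05 ± 0.231 and did not pass (limma, adjusted p = 0.391). Ptgis differed by 0.895 at day 17 and by -0.129 ± 0.178 at day 7, where single experiments gave -0.206 to -0.0825. Its difference between the days was 1.02 ± 0.252 (limma, adjusted p = 0.561). The comparison with day 7 was chosen after seeing the data, and day 7 cultures also differ in transgene and in medium.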

How the results depend on the processing

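Of the 36 called named genes 0 changed direction, and 0 stayed called under every alternative that tested them (18 for Fosl1, 20 for Egfr, H2-Q5, Irf5, Nfyb, Pstk, Rasa4 and Tpd52, and 21 for the others); each kept its call in 3 to 16. The 31 rises became 17 with an added 8, 47 with a larger added constant, 4 with no filter, 18 with a filter at the 75th percentile, 5 on deposited values, 6 with median scaling, 0 with day 17 arrays only, 84 with only the 6 arrays compared, 10 without a variance trend and 1 with no replicate block. The 15 falls became 7 with an added 8, 1 with no filter, 0 on deposited values, with median scaling, with day 17 arrays only or with no replicate block, 1 without a variance trend, 5 with a random replicate block, 6 without Exp106 and 4 when a change of at least 2-fold was asked. Leaving out 1 array at a time gave 0 to 148 rises, 0 to 90 falls and 0 to 91 probe sets above both fractions; the highest values came without the GFP-positive array of Exp106, and each unsorted array left out gave 0 falls. Probe sets above both fractions numbered 14 with a random block and 15 without Exp106, and 1 lay between with GFP-negative higher under the filter at the 75th percentile. The position of genes high in GFP-positive cells moved from 0.207 to 0.355 at 8-fold, 0.303 on deposited values and 0.282 without Exp106, and that of genes low in them from 0.0776 to -0.162 without Exp106. The cause of these shifts was not tested. List medians kept their sign for macrophage (0.706 to 1.62), complement (0.709 to 1.27), hydrolase (0.296 to 0.506), osteoblast (0.144 to 0.301) and respiratory chain genes (-0.265 to -0.0983), whereas those of immediate early genes turned in 4 alternatives and of secretory genes in 2.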
